A study of Homo sapiens with 6 samples.

Results

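The 42 genes described here encode proteins of homologous recombination and of the DNA damage checkpoint, with the Fanconi anaemia proteins, the enzymes PARP1 and PARP2 and the mismatch recognition protein MSH6. They were chosen by name, with earlier results of these data known. All 42 were found among the 32679 genes measured by RNA-seq in HEY cells, a human ovarian cancer cell line. In 3 samples the cells carried a control hairpin (shNC) and in 3 samples a hairpin against PQBP1 (shPQBP1), a splicing protein of the early spliceosome, and the comparison asks how gene expression differs upon PQBP1 knockdown. By the labels, the shPQBP1 samples received doxycycline at 1 µg/ml, which switches the hairpin on, the shNC samples received no treatment, and all 6 samples were taken on day 3, so that the hairpin and doxycycline cannot be told apart. The study made its stable lines with lentivirus and puromycin selection, and its design text calls the 3 samples of each group biological replicates. The p-values below measure the spread between these samples only.

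Homologous recombination repairs a broken chromosome by copying the intact sister chromatid. The MRE11-RAD50-NBN complex and CtIP (gene RBBP8) trim the broken ends, BRCA1 with BARD1 and PALB2 brings BRCA2 to the break for the exchange of strands, while the Fanconi anaemia proteins unhook crosslinked DNA. The kinases ATM and ATR report the damage to CHEK2 and CHEK1, which stop the cell cycle. Defects of this pathway are frequent in high-grade serous ovarian carcinoma and underlie its treatment with PARP inhibitors.

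Expression was given as FPKM, the fragments of a gene divided by its transcript length and by the mapped fragments of the sample, so that levels can be compared between genes. Genes with a mean of at least 1 FPKM over the 6 samples were tested with limma on log2(FPKM + 0.1). Of the 42 genes, 39 were tested, among 11413 genes in all. RAD51B, RAD51D and FANCB lay under that level. Log2 fold changes are those of FPKM + 0.1, shPQBP1 over shNC, followed where given by their standard error (SE). In bulk RNA, a lower level per cell and fewer cells that express a gene cannot be told apart.

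The targeted gene PQBP1 had 7.18, 6.67 and 6.93 FPKM in the shNC samples and 1.68, 1.72 and 1.44 FPKM in the shPQBP1 samples, and fell by 2.04 on the log2 scale (SE 0.10, limma adjusted p = 0.001539). The sample shNC 1 stood apart from the others. Its highest correlation with another sample, over all tested genes, was 0.955, against 0.965 to 0.969 for the other samples, and the deviation of its genes from their group mean rose with the GC content of their transcripts (Spearman's rho = 0.613 across genes). Of the 42 genes, 26 had their lowest value of all 6 samples in shNC 1, and of the 39 tested, 25 did. Of all tested genes, 32.1% had theirs there. The 39 tested genes lay at a median log2 difference of -0.351 from the mean of shNC 2 and shNC 3, against 0.029 for all tested genes. The deviations of shPQBP1 2 also rose with GC content (rho = 0.403), and those of the other samples fell with it (rho = -0.113 to -0.518). For a log2 fold change whose sign turned or whose size moved by over 1.5 times without shNC 1, that value is given as well. Among marker genes, keratins 7, 8 and 18 and PAX8, a factor of Müllerian epithelium, were expressed, but the epithelial cadherin CDH1 was at 0.06 FPKM or less and the ovarian carcinoma antigen MUC16 at 0.01 FPKM or less in every sample. The mesenchymal markers summed to 1265.08 to 1387.18 FPKM in shNC and 1502.63 to 1605.17 FPKM in shPQBP1, mostly from VIM. They did not move together. VIM, ZEB1 and FN1 (42.51 to 44.57 FPKM in shNC and 127.42 to 154.68 FPKM in shPQBP1) were higher without overlap. SPARC and TGFBI were lower without overlap, and the groups of CDH2 overlapped. Of all tested genes, 17.3% were higher and 17.1% lower without overlap. Of the blood and endothelial markers, the leukocyte marker PTPRC was listed at 0 in all samples, and CD68, a lysosomal protein abundant in macrophages, was at 9.12 to 21.16 FPKM and made up most of the summed 9.41 to 15.9 FPKM in shNC and 12.34 to 21.32 FPKM in shPQBP1. The part of other cells in these values was not tested.

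The genes differ widely in base composition. Of the tested genes, BRCA2, RAD54B, FANCM and RAD50 have the least GC in their coding sequence, and XRCC3, MUS81 and FANCE the most. All of these but RAD54B are represented here by 120 bases from the middle of the coding sequence, read 5′ to 3′ on the coding strand from hg38 with GENCODE release 44, with G and C in capitals. The first 3 are AT-rich genes and the last 3 GC-rich ones, shown because the log2 fold changes varied with base composition.
BRCA2: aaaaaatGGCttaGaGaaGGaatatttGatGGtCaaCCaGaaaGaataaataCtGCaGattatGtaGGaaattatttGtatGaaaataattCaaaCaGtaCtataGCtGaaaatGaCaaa
FANCM: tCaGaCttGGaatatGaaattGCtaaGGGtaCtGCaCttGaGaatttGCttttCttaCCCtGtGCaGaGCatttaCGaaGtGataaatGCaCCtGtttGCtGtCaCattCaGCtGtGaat
RAD50: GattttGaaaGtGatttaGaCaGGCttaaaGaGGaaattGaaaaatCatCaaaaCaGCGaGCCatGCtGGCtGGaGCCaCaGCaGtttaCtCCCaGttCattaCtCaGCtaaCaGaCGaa
FANCE: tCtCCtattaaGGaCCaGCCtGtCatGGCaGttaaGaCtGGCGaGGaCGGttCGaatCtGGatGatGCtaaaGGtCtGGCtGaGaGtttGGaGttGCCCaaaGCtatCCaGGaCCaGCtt
MUS81: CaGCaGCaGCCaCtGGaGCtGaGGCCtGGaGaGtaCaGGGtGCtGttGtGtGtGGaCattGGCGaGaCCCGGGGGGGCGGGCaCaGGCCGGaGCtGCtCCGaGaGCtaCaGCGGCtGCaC
XRCC3: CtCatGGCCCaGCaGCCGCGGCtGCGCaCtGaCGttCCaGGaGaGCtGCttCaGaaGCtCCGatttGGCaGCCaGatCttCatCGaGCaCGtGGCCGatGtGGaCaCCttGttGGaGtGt

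In these stretches, GC makes up 27.5% of the bases of BRCA2, 40.0% of FANCM and 41.7% of RAD50, against 50.8% of FANCE and 67.5% of MUS81, with XRCC3 between. Over the whole coding sequence, the GC content was 35.7% in BRCA2, 37.8% in RAD54B, 37.9% in FANCM and 38.0% in RAD50, and 60.3% in FANCE, 62.9% in MUS81 and 63.3% in XRCC3.

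In the 39 tested genes, most values were higher upon PQBP1 knockdown, by little. The log2 fold change was above 0 in 29 genes and below 0 in 10, with a median of 0.239, against 0.021 for all tested genes. No gene of the 39 passed an adjusted p of 0.05 (limma, Benjamini-Hochberg over all tested genes), which 2.91% of all tested genes did. At an unadjusted p under 0.05, 10 of the 39 were higher, or 25.6%, against 11.9% of all tested genes, and 1 was lower, or 2.56%, against 11.7%. The 10 were BRCA2, FANCF, PALB2, BRCA1, BARD1, RBBP8, RAD52, TP53BP1, CHEK1 and PARP2, and the lower gene was EME1. BRCA2 alone also had a fold change over 2, which with p under 0.05 held for 1.52% of all tested genes. In 14 of the 39 genes, or 35.9%, every shPQBP1 value lay above every shNC value, against 17.3% of all tested genes. In 2 genes, or 5.13%, every shPQBP1 value lay below, against 17.1%. Without shNC 1, 7 genes were higher at an unadjusted p under 0.05, where 13.4% of all tested genes were, and the median was 0.181, against 0.011. The number higher was 5 without shNC 3, where 10.3% of all tested genes were, 4 without shPQBP1 1 (8.01% of all), 3 without shPQBP1 2 (8.82% of all) and 3 without shPQBP1 3 (7.62% of all). Of 39 genes, 3 is a share near that of all genes.

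**Figure D1:**
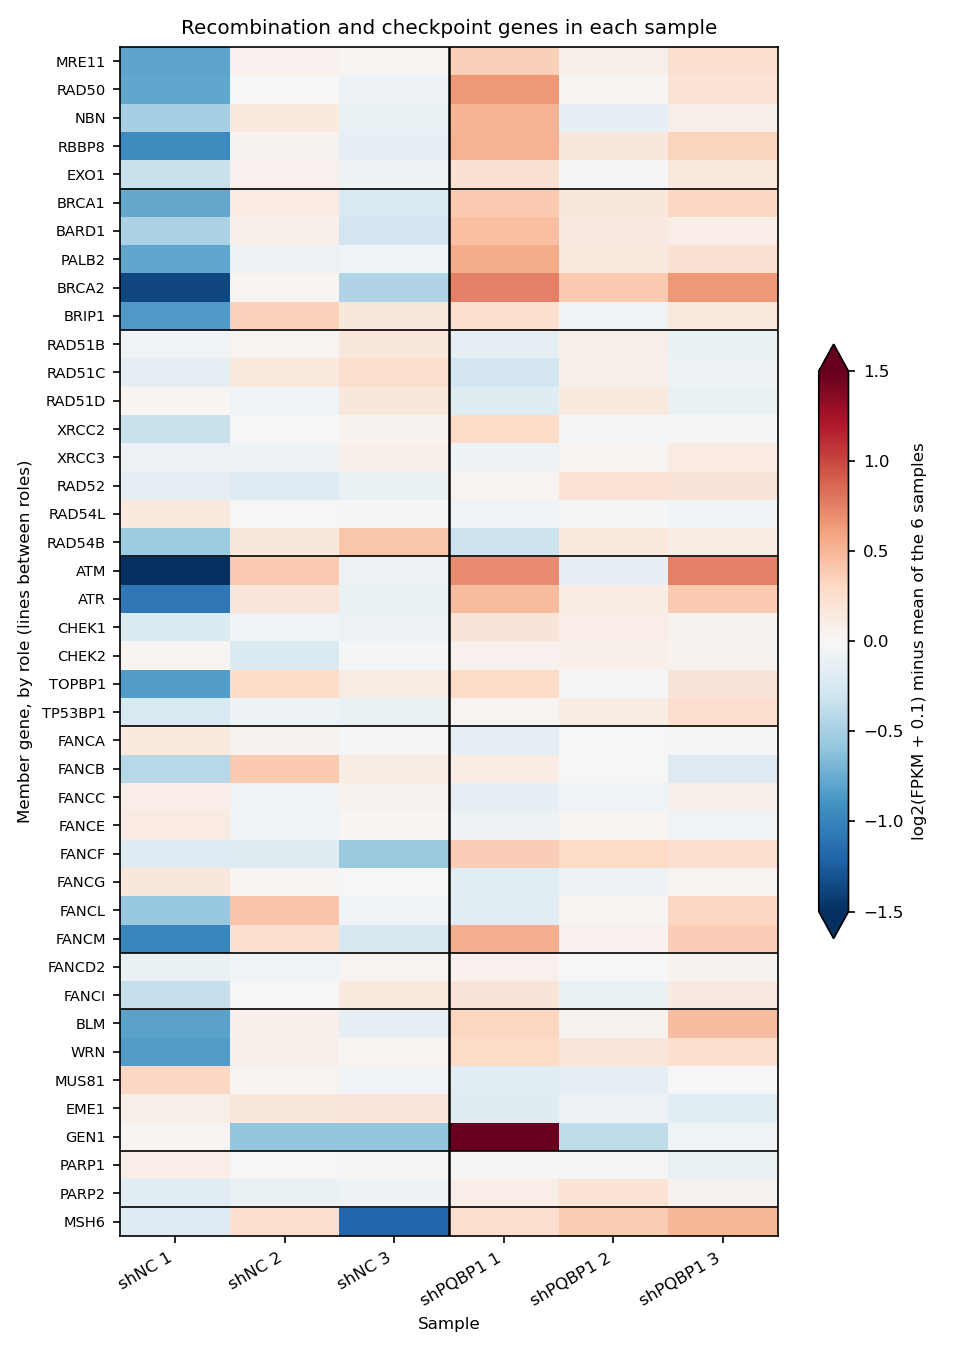
Each row is 1 of the 42 genes, ordered by role, and each column 1 sample; colour gives log2(FPKM + 0.1) minus the mean of the 6 samples for that gene, blue for lower and red for higher. The column of shNC 1 is the darkest blue, holding the lowest value of 26 genes, and shPQBP1 1 holds the highest value of 19.

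**Figure D2:**
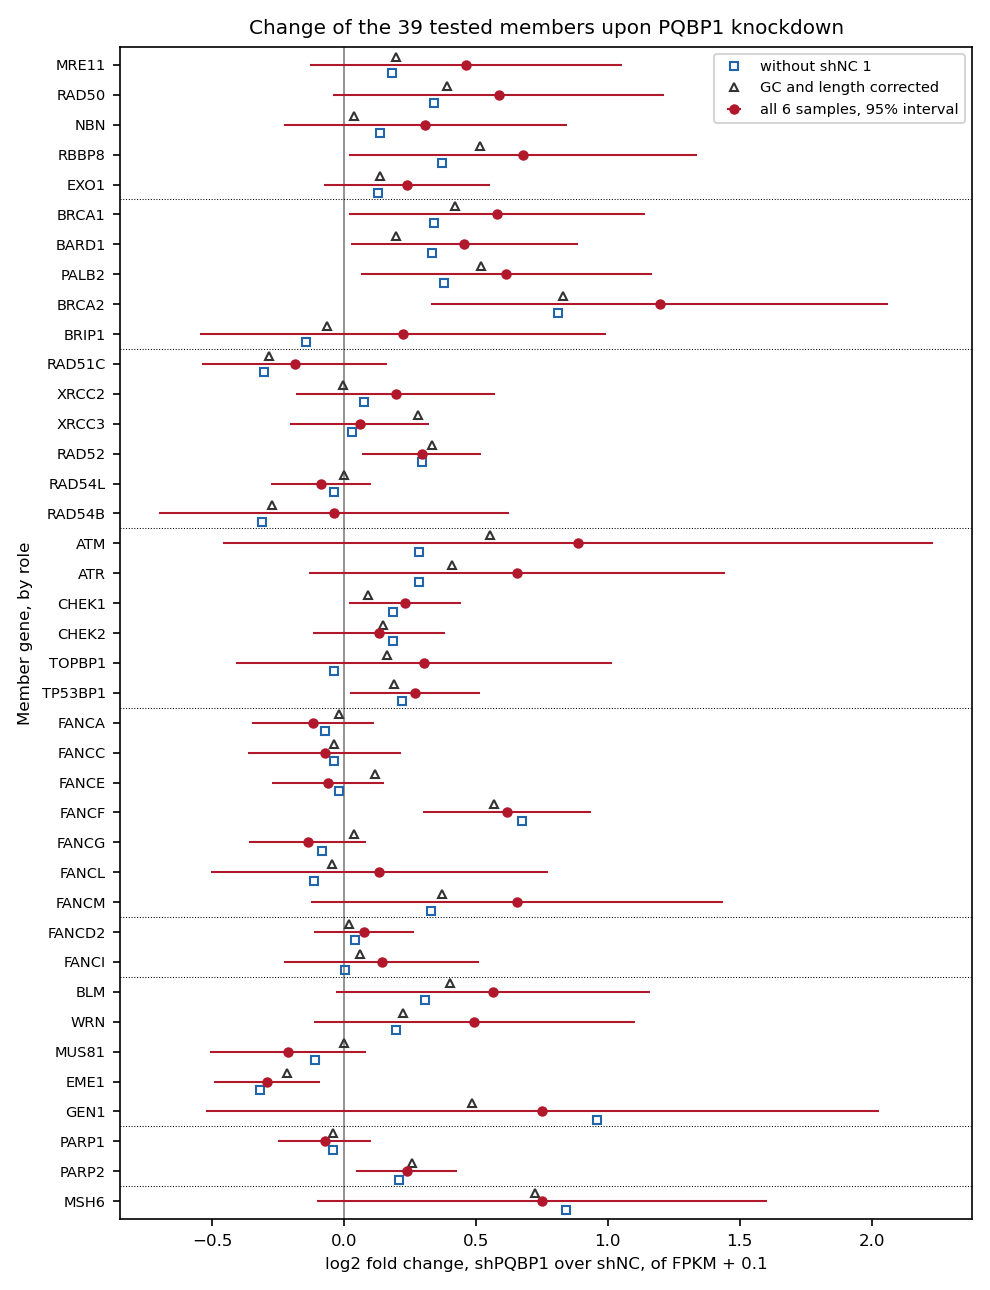
Log2 fold change of FPKM + 0.1, shPQBP1 over shNC, for each of the 39 tested genes, ordered by role, with its 95% interval as a horizontal line. Squares give the value without shNC 1 and triangles the value corrected for GC content and length, and the squares of ATM, ATR and TOPBP1 lie far left of their circles.

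BRCA2 had the largest log2 fold change of the 39 genes. Of the 5 genes of the complexes built around BRCA1 and BRCA2, 4 were higher at an unadjusted p under 0.05. For this role and those below, 11.9% of all tested genes were higher at that p and 11.7% lower. Without shNC 1, only BRCA2 and PALB2 of the 5 were higher at that p (13.4% of all genes). With the replicate number as a block, only BRCA2 was (8.48% of all genes). The median log2 fold change of the 5 was 0.580, or 0.339 without shNC 1. BRCA2, which prepares single-stranded DNA for strand exchange, is encoded by 27 exons at chr13:32315086-32400268 on the plus strand. It had 0.47, 1.40 and 0.98 FPKM in shNC 1 to 3 and 2.38, 1.84 and 2.21 FPKM in shPQBP1 1 to 3. The groups did not overlap, and shNC 1 was the lowest sample. BRCA2 reached the mean of 1 FPKM set for testing only through shPQBP1, with means of 0.95 FPKM in shNC and 2.14 FPKM in shPQBP1. The log2 fold change of BRCA2 was 1.2 (SE 0.36, 95% interval 0.330 to 2.063), or 2.292-fold, with an unadjusted p of 0.01457 and a limma adjusted p of 0.1266. Without shNC 1 its log2 fold change was 0.81. Corrected for GC content and length it was 0.83, and the limma adjusted p was then 0.03265. With that correction, 938 of 11385 genes in all passed an adjusted p of 0.05, against 332 of 11413 without it.

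PALB2, the bridge between BRCA1 and BRCA2 (chr16:23603160-23641321, minus strand), had 2.58, 4.25 and 4.35 FPKM in shNC and 6.68, 4.99 and 5.31 FPKM in shPQBP1. The groups did not overlap, with shNC 1 the lowest and shPQBP1 1 the highest, and the log2 fold change was 0.62 (SE 0.23), or 0.38 without shNC 1. BRCA1, a ubiquitin ligase that favours resection of the break (chr17:43044295-43170245, minus strand), had 1.55, 2.98 and 2.31 FPKM in shNC and 3.59, 3.08 and 3.39 FPKM in shPQBP1. Its highest shNC value and its lowest shPQBP1 value were close, and the log2 fold change was 0.58 (SE 0.23), or 0.34 without shNC 1. BARD1, the partner that makes BRCA1 stable (chr2:214725646-214809683, minus strand), had 1.89, 2.80 and 2.17 FPKM in shNC and 3.68, 2.92 and 2.86 FPKM in shPQBP1. Here too the groups were apart by a small gap, with a log2 fold change of 0.46 (SE 0.18) that was 0.33 without shNC 1 and 0.20 after the GC and length correction. The limma adjusted p-values were 0.1784 for PALB2, 0.2017 for BRCA1 and 0.1943 for BARD1. BRIP1, a helicase that binds BRCA1, differed from these 4. Its means were 3.20 ± 1.27 and 3.54 ± 0.398 FPKM (SD, n = 3), and its log2 fold change of 0.22 (SE 0.32) became -0.15 without shNC 1.

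The ratio of partners within a sample is free of any factor common to that sample, but not of a trend on GC content, in which the partners differ. The ratio of BRCA2 to PALB2 was 0.182, 0.329 and 0.225 in shNC and 0.356, 0.369 and 0.416 in shPQBP1. All 3 shPQBP1 ratios lay above all 3 shNC ratios (p = 0.1 in a two-sided exact permutation test, which cannot go lower with 3 against 3 samples). The ratio of BRCA1 to BARD1 averaged 0.983 ± 0.141 in shNC and 1.07 ± 0.106 in shPQBP1 (SD, n = 3), and its groups overlapped. The log2 fold change of BRCA2 minus that of PALB2 was 0.581, and 0.309 with the GC and length correction, a difference that was not tested. Over 8 pairs compared in this way, the groups were apart in 2, this pair of BRCA2 and PALB2 and that of PARP1 and PARP2 below. How often pairs of other genes were apart was not measured, so the 2 cannot be set against a background.

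**Figure D3:**
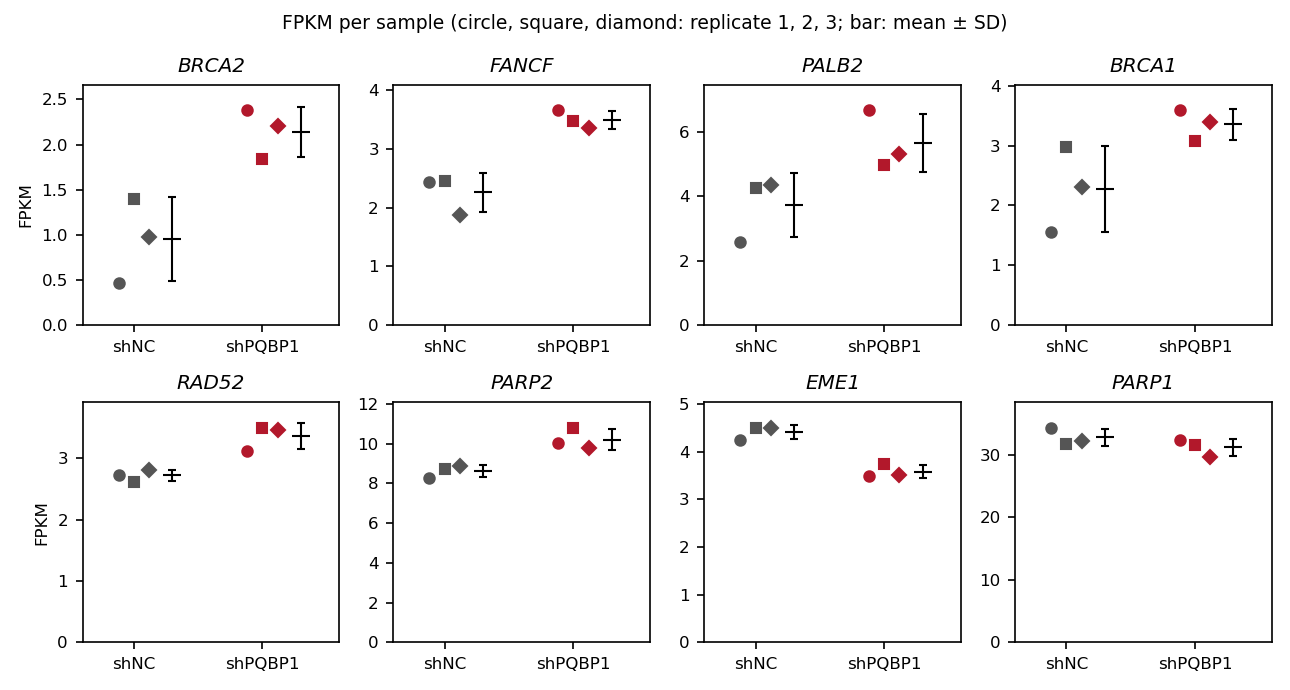
FPKM of 8 of the genes in each sample, on axes that start at 0, with circles, squares and diamonds for replicates 1, 2 and 3 and a bar for the mean ± SD (n = 3). The groups of BRCA2, FANCF, PALB2, BRCA1, RAD52, PARP2 and EME1 do not overlap, and those of PARP1 do.

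In the end resection group, all 5 genes had a log2 fold change above 0, with a median of 0.461 that was 0.181 without shNC 1, and 1 gene passed an unadjusted p of 0.05. That gene was RBBP8, which encodes CtIP, the protein that starts resection with the MRE11 nuclease. It had 4.42, 9.01 and 7.97 FPKM in shNC and 12.49, 9.73 and 10.90 FPKM in shPQBP1. The shNC 1 value stood far below the rest, and the log2 fold change of 0.68 (SE 0.27, limma adjusted p = 0.2037) was 0.37 without it. RAD50, the ATPase that tethers the ends, had 2.10, 3.67 and 3.47 FPKM in shNC and 5.84, 3.76 and 4.27 FPKM in shPQBP1. The lowest shPQBP1 value was just above the highest shNC value, with a log2 fold change of 0.59 (SE 0.26), or 0.34 without shNC 1. In GENCODE, 91.0% of the exon bases of RAD50 are shared with other annotated genes, so that its reads may be divided between them. These are a gene on the same strand and TH2LCRR on the opposite strand, whose shares were not taken apart. MRE11, the nuclease, had 2.61, 4.80 and 4.69 FPKM in shNC and 5.91, 4.88 and 5.44 FPKM in shPQBP1. Its groups too were apart, with a log2 fold change of 0.46 (SE 0.24), or 0.18 without shNC 1.

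NBN, the third protein of that complex and the one that recruits ATM, had 9.94, 15.65 and 13.00 FPKM in shNC and 20.10, 12.97 and 14.81 FPKM in shPQBP1. These groups overlapped, since shPQBP1 2 lay below shNC 2 and shNC 3, and the log2 fold change was 0.31 (SE 0.22), or 0.14 without shNC 1. EXO1, the exonuclease that extends resection, had 7.22, 9.55 and 8.64 FPKM in shNC and 10.78, 9.0 and 10.15 FPKM in shPQBP1, also with overlap, and a log2 fold change of 0.24 (SE 0.13), or 0.13 without shNC 1. Within the complex, the ratio of MRE11 to RAD50 averaged 1.3 in shNC and 1.19 in shPQBP1, and that of MRE11 to NBN 0.310 and 0.346, with overlapping groups in each case.

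Among the strand exchange proteins, the values differed little between the groups. Of 8 genes, 6 were tested, 3 above and 3 below 0, with a median log2 fold change of 0.011, or -0.003 without shNC 1. RAD52, which anneals complementary strands (chr12:911736-990053, minus strand), was the only gene here at an unadjusted p under 0.05. It had 2.73, 2.62 and 2.81 FPKM in shNC and 3.12, 3.50 and 3.46 FPKM in shPQBP1. Every shPQBP1 value was above every shNC value, shNC 1 lay between the other shNC samples, and the log2 fold change was 0.29 (SE 0.09, unadjusted p = 0.01891, limma adjusted p = 0.1382). It was 0.30 without shNC 1 and 0.33 after the GC and length correction. RAD51C, which acts in strand exchange, had means of 5.56 ± 0.793 and 4.86 ± 0.590 FPKM and a log2 fold change of -0.19 (SE 0.14), which was -0.30 without shNC 1, as large as that of RAD52 in the other direction. Its partner XRCC3 had 2.28 ± 0.153 and 2.38 ± 0.176 FPKM (log2 fold change 0.06, or 0.03 without shNC 1). XRCC2 had 2.14 ± 0.314 and 2.46 ± 0.325 FPKM (0.20, or 0.08 without shNC 1). RAD54L, a motor that assists strand invasion, had 10.7 ± 0.671 and 10.1 ± 0.107 FPKM and a log2 fold change of -0.09 (SE 0.08), or -0.04 without shNC 1. Its groups did not overlap, by a gap from 10.14 to 10.30 FPKM. RAD54B, a related motor, had 2.25 ± 0.729 and 2.13 ± 0.392 FPKM (log2 fold change -0.04, or -0.31 without shNC 1), with 65.5% of its exon bases shared with FSBP. The untested genes RAD51B and RAD51D had 0.850 ± 0.0755 and 0.783 ± 0.0757 FPKM, and 0.867 ± 0.0764 and 0.807 ± 0.110 FPKM.

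The 6 checkpoint genes all had log2 fold changes above 0, with a median of 0.286, or 0.203 without shNC 1. In the kinases ATM and ATR the difference rested on 1 sample. ATM, the kinase activated at broken ends, had 0.45, 2.17 and 1.54 FPKM in shNC and 2.72, 1.48 and 2.81 FPKM in shPQBP1. The groups overlapped, shNC 1 was far below all others, and the log2 fold change of 0.89 (SE 0.56, 95% interval -0.459 to 2.234) was 0.28 without it. ATR, the kinase activated by single-stranded DNA, had 2.53, 6.19 and 5.06 FPKM in shNC and 7.61, 5.87 and 7.16 FPKM in shPQBP1. The groups overlapped in the same way, and the log2 fold change of 0.66 (SE 0.33) was 0.28 without shNC 1. TOPBP1, which activates ATR, had means of 18.1 ± 6.58 and 21.3 ± 2.46 FPKM, and its log2 fold change of 0.30 was -0.04 without shNC 1.

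The effector kinases differed little, but with a narrow spread. CHEK1, the target of ATR (chr11:125625163-125676255, plus strand), had 3.87, 4.31 and 4.2 FPKM in shNC and 5.13, 4.79 and 4.66 FPKM in shPQBP1. The groups did not overlap, and the log2 fold change was 0.23 (SE 0.09, limma adjusted p = 0.1873), or 0.19 without shNC 1 and 0.09 after the GC and length correction. Of the exon bases of CHEK1, 18.2% are shared with STT3A on the same strand and a gene on the opposite strand. STT3A had means of 22.26 and 23.91 FPKM in shNC and shPQBP1, and a log2 fold change of 0.10. CHEK2, the target of ATM, had 3.03, 2.51 and 2.89 FPKM in shNC and 3.07, 3.10 and 3.06 FPKM in shPQBP1. These groups did not overlap either, but shNC 1 was only just below the shPQBP1 samples, and the log2 fold change was 0.13 (SE 0.10, 95% interval -0.119 to 0.381). TP53BP1, which restrains resection at breaks (chr15:43403061-43510728, minus strand), had 2.67, 2.99 and 2.94 FPKM in shNC and 3.25, 3.42 and 3.76 FPKM in shPQBP1. All 3 shPQBP1 values were higher, and the log2 fold change was 0.27 (SE 0.10, limma adjusted p = 0.1827). On the opposite strand, TUBGCP4 shares 36.0% of its exon bases. The log2 fold change of TUBGCP4 was 0.02.

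In the Fanconi anaemia core complex, which attaches ubiquitin to FANCD2 and FANCI, 7 of 8 genes were tested, 1 of them was higher at an unadjusted p under 0.05, and the median log2 fold change was -0.062, or -0.039 without shNC 1. FANCF, an adaptor inside the complex, is a single-exon gene at chr11:22622533-22625823 on the minus strand. It had 2.44, 2.46 and 1.88 FPKM in shNC and 3.66, 3.48 and 3.35 FPKM in shPQBP1. The shPQBP1 values lay close together and well above all shNC values, and here shNC 3, not shNC 1, was the lowest sample. The log2 fold change of FANCF was 0.62 (SE 0.13, 95% interval 0.299 to 0.935), or 1.534-fold, with the smallest unadjusted p of the 39 genes, 0.002978, and a limma adjusted p of 0.0640. It was 0.67 without shNC 1 and 0.57 after the GC and length correction.

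FANCM, the translocase that anchors the complex to DNA, had 0.73, 1.82 and 1.28 FPKM in shNC and 2.29, 1.61 and 2.0 FPKM in shPQBP1. The groups overlapped, and the log2 fold change of 0.65 (SE 0.32) was 0.33 without shNC 1. FANCG had 10.43, 9.44 and 9.23 FPKM in shNC and 8.28, 8.68 and 9.47 FPKM in shPQBP1, with overlap and a log2 fold change of -0.14 (SE 0.09), or -0.08 without shNC 1. The other core genes had overlapping groups and log2 fold changes from -0.12 to 0.13. Without shNC 1 those were -0.07 for FANCA, -0.04 for FANCC, -0.02 for FANCE and -0.11 for FANCL. Their means in shNC and shPQBP1 were 3.14 ± 0.190 and 2.89 ± 0.140 FPKM for FANCA, 1.68 ± 0.0971 and 1.59 ± 0.118 FPKM for FANCC, and 5.31 ± 0.330 and 5.08 ± 0.234 FPKM for FANCE. FANCL, the ubiquitin ligase subunit, had 6.42 ± 2.2 and 6.84 ± 1.15 FPKM, and the untested FANCB 0.930 ± 0.276 and 0.870 ± 0.101 FPKM. The substrates of the complex also showed small differences. FANCD2 had 7.46, 7.73 and 8.28 FPKM in shNC and 8.37, 8.0 and 8.35 FPKM in shPQBP1, and its log2 fold change of 0.08 (0.04 without shNC 1) had a 95% interval of -0.115 to 0.265. FANCI, its partner, had 10.6 ± 1.79 and 11.6 ± 1.27 FPKM, a log2 fold change of 0.14 that was 0.0036 without shNC 1. The ratio of FANCD2 to FANCI averaged 0.751 ± 0.0997 in shNC and 0.715 ± 0.0638 in shPQBP1.

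Of the helicases and resolvases, which dismantle joined DNA molecules, 3 lay above 0 and 2 below, with a median log2 fold change of 0.494, or 0.198 without shNC 1. EME1, the partner of the nuclease MUS81 (chr17:50373220-50381483, plus strand), was the only gene of the 39 that was lower at an unadjusted p under 0.05. It had 4.24, 4.49 and 4.51 FPKM in shNC and 3.50, 3.75 and 3.51 FPKM in shPQBP1. Every shPQBP1 value was below every shNC value, and the log2 fold change was -0.29 (SE 0.08, unadjusted p = 0.01144, limma adjusted p = 0.1148), or -0.32 without shNC 1. After the GC and length correction it was -0.22, with an unadjusted limma p of 0.07902. LRRC59, on the opposite strand, shares 23.2% of the exon bases of EME1 and was expressed at a far higher level. LRRC59 had 97.72, 81.89 and 84.95 FPKM in shNC and 61.89, 67.94 and 63.90 FPKM in shPQBP1, a log2 fold change of -0.45. Whether the library kept strand is not given in the sources used here, and the part of LRRC59 reads in the value of EME1 was not tested. Genes on the opposite strand also share 34.2% of the exon bases of XRCC3, 26.2% of RAD54L, 27.4% of FANCA and 27.3% of FANCL. MUS81 had 4.41, 3.63 and 3.43 FPKM in shNC and 3.13, 3.18 and 3.50 FPKM in shPQBP1, with overlapping groups and a log2 fold change of -0.21 (SE 0.12) that was -0.11 without shNC 1 and -0.0016 after the GC and length correction.

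BLM, the helicase lost in Bloom syndrome, had 1.70, 3.20 and 2.77 FPKM in shNC and 3.83, 3.16 and 4.21 FPKM in shPQBP1. The overlap was slight, and the log2 fold change of 0.57 (SE 0.25) was 0.31 without shNC 1. WRN, the helicase lost in Werner syndrome, had 1.79, 3.46 and 3.34 FPKM in shNC and 4.06, 3.75 and 3.94 FPKM in shPQBP1. The groups did not overlap, and the log2 fold change of 0.49 (SE 0.25) was 0.20 without shNC 1. GEN1, a nuclease that cuts Holliday junctions, had 1.10, 0.68 and 0.68 FPKM in shNC and 3.36, 0.80 and 1.02 FPKM in shPQBP1. Its log2 fold change of 0.75 (SE 0.53) rested on shPQBP1 1 and was 0.16 without that sample. GEN1, like BRCA2, reached the level set for testing only through shPQBP1, with means of 0.82 FPKM in shNC and 1.73 FPKM in shPQBP1.

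The poly(ADP-ribose) polymerases, the targets of PARP inhibitors, had log2 fold changes of opposite sign. PARP1, the main enzyme and the most highly expressed of the 42 genes, had 34.31, 31.76 and 32.23 FPKM in shNC and 32.24, 31.59 and 29.55 FPKM in shPQBP1. The groups overlapped, and the log2 fold change of -0.07 (-0.04 without shNC 1) had a 95% interval of -0.251 to 0.103. PARP2, its smaller relative (chr14:20343615-20357904, plus strand), had 8.29, 8.73 and 8.87 FPKM in shNC and 10.03, 10.81 and 9.76 FPKM in shPQBP1. All 3 shPQBP1 values were higher, and the log2 fold change was 0.24 (SE 0.08, unadjusted p = 0.02296, limma adjusted p = 0.1501), or 0.21 without shNC 1. The ratio of PARP1 to PARP2 was 4.14, 3.64 and 3.63 in shNC and 3.21, 2.92 and 3.03 in shPQBP1. These ratios did not overlap (exact permutation p = 0.1), and the log2 fold change of PARP1 minus that of PARP2 was -0.312, or -0.298 with the GC and length correction.

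MSH6, which recognises mismatches, had 6.62, 9.05 and 3.28 FPKM in shNC and 9.03, 9.87 and 10.78 FPKM in shPQBP1. The groups overlapped slightly, with shNC 3 far below the rest. The log2 fold change was 0.75 (SE 0.35, 95% interval -0.102 to 1.603), and it was 0.35 without shNC 3.

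The log2 fold changes of the 39 genes followed the base composition and the length of their transcripts. Spearman's rho between log2 fold change and transcript GC content was -0.610 across the 39 genes and -0.459 across 11385 genes with a GENCODE transcript. With transcript length, rho was 0.628 across the 39 genes and 0.206 across all. Genes are not independent replicates, and these values share the same 6 libraries. The 39 transcripts had a median GC content of 41.9% and a median length of 4592 bases, against 47.5% and 2981 bases for all. Among the 26 genes under 45% GC, 24 log2 fold changes were above 0, the median was 0.478, and 22 genes had their lowest value in shNC 1. All 4530 genes under 45% GC had a median of 0.193. Among the 13 genes at 45% GC or more, 5 were above 0, the median was -0.073, and 3 had their lowest value in shNC 1. The 6855 such genes in all had a median of -0.082. Of the 4 genes with the least coding GC, BRCA2, FANCM and RAD50 lay at 1.2, 0.65 and 0.59, but RAD54B lay at -0.04, or -0.31 without shNC 1. The GC-rich genes FANCE, MUS81 and XRCC3 lay at -0.06, -0.21 and 0.06.

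Without shNC 1, the correlation with GC content was -0.316 across the 39 genes and -0.236 across all genes. After the trend of each sample on transcript GC content and length had been taken out, it was -0.214 and -0.006. The correlation with length was then 0.409 across the 39 genes and 0.007 across all. The median log2 fold change of the 39 genes was then 0.163, against 0.027 for all genes, and 8 genes were higher at an unadjusted p under 0.05, where 15.7% of all genes were. With that correction and without shNC 1 together, the median was 0.113, against 0.008, and 5 genes were higher, namely RAD52, RBBP8, PARP2, BRCA2 and FANCF, where 14.5% of all genes were. How much of the difference in these genes comes with the base composition of the libraries was not tested further. Of 17 alternative settings, FANCF and BRCA2 could be tested in 16, and both were higher at an unadjusted p under 0.05 in all 16. The next were EME1 with 13 of 16, RAD52 with 12 of 16 and PARP2 with 12 of 17. These settings reuse the same samples and are not separate tests.

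**Figure D4:**
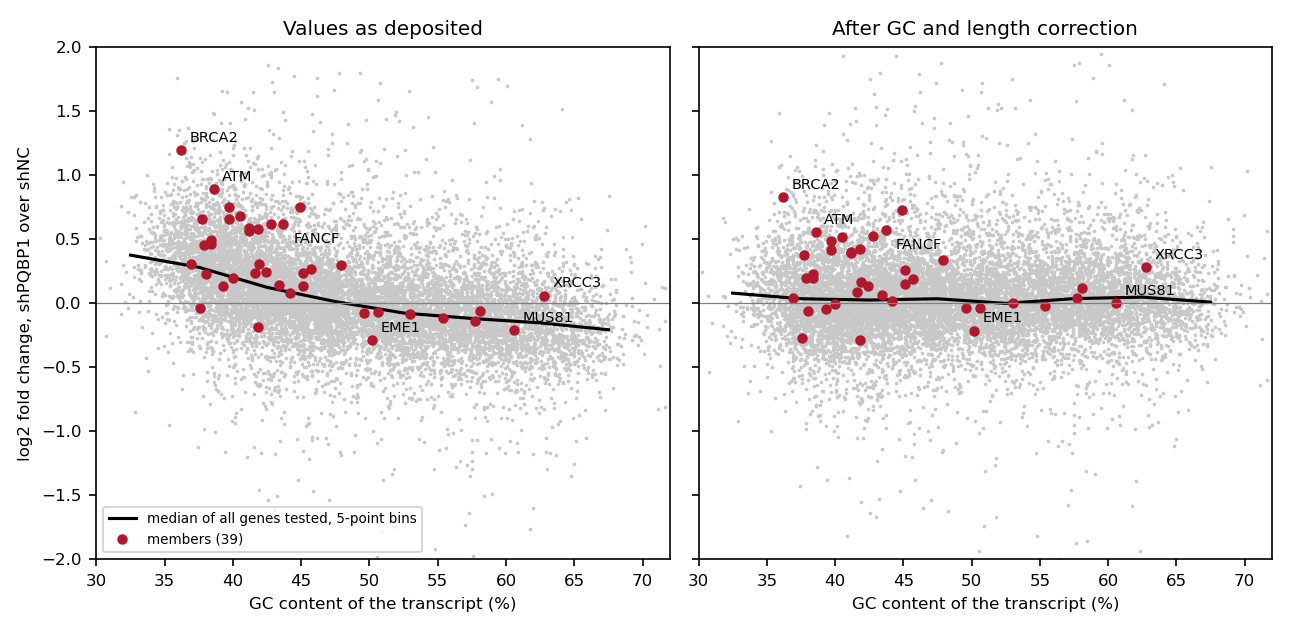
Log2 fold change, shPQBP1 over shNC, against the GC content of the transcript in percent, for the 39 genes (red) and all tested genes (grey), with the median of all genes in bins of GC content as a black line, before (left) and after (right) the correction for GC content and length. Values beyond 2 on either side are not drawn. On the left the red points and the black line fall from upper left to lower right (rho = -0.610 and -0.459), and on the right the line lies near 0 (rho = -0.006) and BRCA2 and FANCF stand at 0.83 and 0.57.

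The promoters of these genes were also read, as the 300 bases around the start of the RefSeq gene (GRCh38.p14), for the 38 genes with an entry (not NBN, RAD54B, FANCI or WRN). The E2F letters GGCGGGAA, on either strand, were found in 11 of 38 promoters (28.9%), against 3.79% of 27305 promoters. The ETS letters ACTTCCG were found in 10 (26.3%, against 8.18% of all), the letters CCAAT in 17 (44.7%, against 39.7%), and the cell cycle homology letters TTTGAA in 3 (7.89%, against 18.2%). The 27305 promoters outnumber the 11413 genes tested, so they include genes under the level set for testing, while nearly all genes described here were tested. These shares were not compared with those of the tested genes alone. No found motif overlapped another in the promoters shown. Those of the 4 genes with the smallest unadjusted p-values follow, 5′ to 3′ on the strand of the gene, with the letters found in capitals.
FANCF: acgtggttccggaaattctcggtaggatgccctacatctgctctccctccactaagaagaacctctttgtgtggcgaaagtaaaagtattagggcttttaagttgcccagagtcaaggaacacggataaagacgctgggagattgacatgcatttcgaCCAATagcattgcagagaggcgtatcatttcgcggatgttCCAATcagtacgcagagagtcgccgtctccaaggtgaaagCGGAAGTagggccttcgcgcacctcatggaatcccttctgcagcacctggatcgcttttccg
EME1: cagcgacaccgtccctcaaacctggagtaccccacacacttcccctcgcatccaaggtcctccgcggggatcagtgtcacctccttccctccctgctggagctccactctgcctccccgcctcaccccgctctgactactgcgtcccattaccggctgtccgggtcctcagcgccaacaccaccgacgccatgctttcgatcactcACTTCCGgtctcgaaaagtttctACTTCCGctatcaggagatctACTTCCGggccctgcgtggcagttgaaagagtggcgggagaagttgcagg
BRCA2: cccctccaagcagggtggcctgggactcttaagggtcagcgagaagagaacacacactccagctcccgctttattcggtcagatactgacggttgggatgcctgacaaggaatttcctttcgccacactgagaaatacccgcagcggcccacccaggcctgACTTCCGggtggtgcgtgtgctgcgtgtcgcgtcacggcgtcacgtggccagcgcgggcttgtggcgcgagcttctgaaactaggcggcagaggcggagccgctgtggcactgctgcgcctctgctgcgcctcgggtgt
RAD52: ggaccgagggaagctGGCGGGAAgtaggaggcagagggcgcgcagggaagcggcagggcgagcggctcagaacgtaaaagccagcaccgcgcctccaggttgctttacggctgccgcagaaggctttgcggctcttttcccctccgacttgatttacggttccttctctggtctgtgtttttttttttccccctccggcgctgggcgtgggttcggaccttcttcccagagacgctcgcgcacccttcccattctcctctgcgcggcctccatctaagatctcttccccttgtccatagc

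FANCF (minus strand, chr11:22625774-22626073) held the CCAAT letters at positions 159 and 199 of the window and the ETS letters at 239, on the opposite strand. EME1 (plus strand, chr17:50372979-50373278), the gene that was lower, held the ETS letters at 207, 230 and 251. BRCA2 (plus strand, chr13:32315258-32315557) held the ETS letters at 162, and RAD52 (minus strand, chr12:949645-949944) the E2F letters at 16. The ETS letters thus stood in the promoters of genes that were higher and of the gene that was lower. A match is a run of letters, and binding was not measured.

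The lists of other repair genes differed less from all tested genes than the 39 genes did, in their medians. With the GC and length correction some came closer to the 39 genes, whose median was then 0.163, against 0.027 for all genes. It was then 0.120 for end joining, 0.101 for damage signalling and 0.072 for mismatch repair. For the accessory genes of recombination and of the Fanconi group it was -0.023 and -0.022. The accessory factors of recombination, 26 tested of 29, had 2 higher genes and 4 lower ones at an unadjusted p under 0.05. Their median log2 fold change was 0.040, or -0.032 without shNC 1. For these lists the shares of all tested genes, 11.9% higher and 11.7% lower, are the background. RMI2, a subunit of the BLM complex, had 3.85, 3.67 and 3.37 FPKM in shNC and 4.6, 5.16 and 5.41 FPKM in shPQBP1 (log2 fold change 0.47). RMI1, its partner in that complex, had 7.11 ± 2.35 and 11.7 ± 0.677 FPKM (0.77, or 0.49 without shNC 1). RPA1, which coats single-stranded DNA, had 30.9 ± 1.73 and 25.3 ± 1.94 FPKM (-0.29). The Fanconi accessory genes, 12 tested of 13, had 0 higher, 2 lower and a median of 0.038. MAD2L2, a subunit of the polymerase that bypasses lesions and of shieldin, had 5.34 ± 0.610 and 3.72 ± 0.547 FPKM (-0.51). FAAP100 of the core complex had 3.27 ± 0.387 and 2.5 ± 0.236 FPKM (-0.37), and CENPX 6.23 ± 1.45 and 4.53 ± 0.725 FPKM (-0.44, or -0.27 without shNC 1).

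The damage signalling genes, 34 tested of 35, had 4 higher, 4 lower and a median log2 fold change of 0.133, or 0.053 without shNC 1. For this list and the next ones, too, 11.9% of all tested genes were higher and 11.7% lower. BABAM2, a scaffold of the BRCA1-A complex, had 6.99, 6.91 and 6.57 FPKM in shNC and 9.22, 8.77 and 10.05 FPKM in shPQBP1 (log2 fold change 0.45). H2AFX, the histone phosphorylated around breaks, had 46.46, 37.79 and 38.11 FPKM in shNC and 30.74, 30.71 and 28.03 FPKM in shPQBP1 (-0.44). RAD9A, of the clamp that activates ATR, had 1.93 ± 0.216 and 1.24 ± 0.124 FPKM (-0.60). The groups of all 3 did not overlap. The end joining genes, 18 tested of 19, had 1 higher, 1 lower and a median of 0.131, or 0.041 without shNC 1. PARP3 had 5.66 ± 0.450 and 6.89 ± 0.127 FPKM, PAXX 7.68 ± 1.06 and 6.03 ± 0.142 FPKM, and TDP2 18.2 ± 3.46 and 22.7 ± 1.56 FPKM. The other mismatch repair genes, all 10 tested, had 1 higher, PMS1 (2.80 ± 0.917 and 5.10 ± 0.940 FPKM), 1 lower, LIG1 (9.45 ± 0.346 and 7.95 ± 0.790 FPKM), and a median of 0.132, or 0.045 without shNC 1. MLH3 had 1.27 ± 0.426 and 1.72 ± 0.154 FPKM. With the GC and length correction, RMI2, BABAM2 and PARP3 passed a limma adjusted p of 0.05 (0.02748, 0.02574 and 0.0159), as did 938 of 11385 genes in all. Without the correction their limma adjusted p-values were 0.06792, 0.0524 and 0.1333. With the correction but without shNC 1 they were 0.05753, 0.05268 and 0.03354, so that only PARP3 still passed. With the correction and the replicate number as a block, none of these genes passed. Other log2 fold changes shrank with the correction. They were then -0.32 for MAD2L2, -0.17 for FAAP100, -0.24 for CENPX and -0.22 for H2AFX. For RAD9A, PAXX and LIG1 the corrected values were -0.39, -0.11 and -0.07. Those of the higher genes RMI1, TDP2, PMS1 and MLH3 were 0.48, 0.18, 0.62 and 0.28, and that of RPA1 was -0.28.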

How the data were processed

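RNA of 6 HEY samples, 3 shNC and 3 shPQBP1, was sequenced in pairs on an Illumina instrument. Per the submitters' processing notes, the reads were processed with HISAT2 (version 2.2.0), SAMtools (version 1.9) and StringTie (version 1.3.0) on hg38, and edgeR is named. The annotation release is not given in the sources used here. The authors deposited 1 table of FPKM per gene and sample, rounded to 2 decimals, and 0 columns of sample values were left out. The deposited table also holds the authors' fold change score, log2 fold change, p-values and q-values, which were not used. FPKM are not counts, so no count model was fitted. Low values of 2032 to 2248 single-exon genes in each sample showed no spacing by whole reads (strength 0.189 to 0.23), so depth is unknown and precision is given by the spread between samples. FPKM summed to 278285.8 to 318484.3 per sample.

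Groups were taken from the sample labels. Where the mean FPKM reached 1, log2(FPKM + 0.1) was compared by two-sided moderated tests of limma-trend (limma 3.58.1 under R 4.3.3), and p-values were adjusted over all tested genes by the Benjamini-Hochberg method. The fits were tested on simulated data. Ratios were compared with exact permutation tests in Python (version 3.11.15). GC content, length, exon overlaps and coding sequences came from GENCODE release 44 on hg38, and promoters from RefSeq (GRCh38.p14). The correction for GC content and length removed natural splines with 5 degrees of freedom for each from every sample. The members and gene lists were chosen with earlier results of these data known. All 42 members were named, with values per sample for the 24 of smallest unadjusted p and for BRCA1, BRCA2, ATM, ATR, CHEK1, CHEK2, FANCD2, PARP1 and MSH6, and in each other list the genes at an adjusted p under 0.05 and up to 3 others of smallest p. Alternatives were other scalings, filters, pseudocounts and trends, the replicate number as a block, the GC and length correction, and each sample left out.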

Additional observations from a re-analysis of the deposited data

How the results depend on the processing

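Over 17 alternative settings, 29 of the 39 genes kept the sign of their log2 fold change, and so did the 11 at an unadjusted p under 0.05. The other filters, the fit without a trend and the block leave a log2 fold change as it is, so they could not turn a sign. The 11 were picked by their p-values in these same samples, so their kept sign is not separate evidence. The number of genes higher at an unadjusted p under 0.05, 10 as reported, was 2 of 15 tested with a mean FPKM of at least 5, where 11.2% of all genes were higher, and 2 of 39 with the replicate number as a block, where 8.48% were. The share of the 39 genes with the block thus lay under that of all genes. The number higher was 5 with that block and the GC and length correction together, where 12.4% of all genes were higher. It was also 5 with that correction without shNC 1 (14.5% of all), a setting chosen after seeing the data. Leaving out each sample gave 3 to 11. The number was 7 without shNC 1 (13.4% of all genes), 11 without shNC 2 (14.3%) and 5 without shNC 3 (10.3%). It was 4 without shPQBP1 1 (8.01%), 3 without shPQBP1 2 (8.82%) and 3 without shPQBP1 3 (7.62%). The number lower, 1 as reported, was 0 with a mean FPKM of at least 5, with the block, with the GC and length correction and with both, and 2 with the correction without shNC 1. The number at a limma adjusted p under 0.05, 0 as reported, was 1 with the correction, where 938 of 11385 genes in all passed. It was also 1 with the correction without shNC 1, where 772 of 11385 genes passed. That gene was BRCA2 (limma adjusted p = 0.03265 and 0.04024), whose adjusted p ranged up to 0.3152 over all settings. The median log2 fold change was 0.181 to 0.329 with each sample left out. The cause of these shifts was not tested, beyond the fewer genes or samples that some settings hold.

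Samples of the same number did not deviate together (correlations of -0.186, -0.138 and -0.0114), so the numbers were not taken as pairs. With the block, 0 of all genes passed a limma adjusted p of 0.05, and 1840 passed an unadjusted p of 0.05. PQBP1 had its log2 fold change of -2.04, which the block cannot move, with a limma adjusted p of 0.06864. It had -1.86 with 0.05429 when the GC and length correction was added. Over all genes, 332 passed as reported, 938 with the GC and length correction, 21 with that correction and the block, 190 when genes above 0 in at least 1 sample were tested, and 30 to 464 with 1 sample left out.

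Signs turned in 10 genes, none of them among the 11 at an unadjusted p under 0.05. Quantile normalization gave -0.0005 for XRCC3. The GC and length correction, with or without the block, gave -0.0628 for BRIP1, -0.0041 for XRCC2, 0.119 for FANCE, 0.0396 for FANCG and -0.045 for FANCL. With the correction and without shNC 1, the values were -0.2356 for BRIP1, -0.0006 for XRCC2, -0.0829 for TOPBP1, 0.073 for FANCE, 0.0028 for FANCG, -0.1955 for FANCL, -0.0279 for FANCI and 0.0039 for MUS81. With 1 sample left out, BRIP1 ranged from -0.1453 to 0.4525, TOPBP1 from -0.0389 to 0.517 and FANCL from -0.1148 to 0.3811, with the lowest value of each without shNC 1, and RAD54B ranged from -0.3106 without shNC 1 to 0.161 without shNC 3. RAD54B was also above 0 without shNC 2 (0.0372) and without shPQBP1 1 (0.1171). Depth is unknown, so no limit of detection is given for genes near 0 FPKM.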

Other observations

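Of the gene lists that border on repair, the replication list held a gene at a limma adjusted p under 0.05, with the values as deposited. CCNE1, the cyclin that drives entry into S phase, had 3.46, 3.12 and 3.65 FPKM in shNC and 1.99, 2.08 and 2.40 FPKM in shPQBP1, and fell by 0.64 on the log2 scale (limma adjusted p = 0.04819). It missed that threshold without any 1 of the 6 samples, with adjusted p-values of 0.06647 to 0.1779 (limma). Of the 32 replication genes tested of 33, 5 were higher and 4 were lower by their unadjusted p (under 0.05), and they had a median log2 fold change of 0.008 (0.075 without shNC 1). Of all tested genes, 11.9% were higher and 11.7% lower. The helicase subunit MCM6 had 22.78, 22.06 and 22.11 FPKM in shNC and 27.58, 25.48 and 25.28 FPKM in shPQBP1, and the flap nuclease FEN1 had 116.60, 94.84 and 102.50 FPKM and 79.23, 86.74 and 83.15 FPKM. GINS2, of the same helicase, had 7.31 ± 0.274 and 8.84 ± 0.566 FPKM (SD, n = 3). With the GC and length correction, FEN1 and GINS2 also passed a limma adjusted p of 0.05 (0.03529 and 0.03798), as did 938 of 11385 genes in all. Without the correction their limma adjusted p-values were 0.1176 and 0.1334. With the correction but without shNC 1 they were 0.05895 and 0.06499. Neither gene passed with the correction and the replicate number as a block.

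Of the 21 G2 and mitosis genes, all tested, 1 was higher and 4 were lower by their unadjusted p, and they had a median log2 fold change of 0.083 (-0.032 without shNC 1). For this list and the p53 targets below, the shares of all tested genes were 11.9% higher and 11.7% lower. The spindle checkpoint kinase BUB1B had 19.4 ± 2.08 and 24.6 ± 1.01 FPKM, the mitotic kinase AURKA 66.3 ± 3.13 and 56.5 ± 1.42 FPKM, and the ubiquitin conjugating enzyme UBE2C 103.6 ± 6.76 and 88.6 ± 0.968 FPKM. Of 20 p53 target genes, 0 were higher and 4 lower, with a median of -0.018 (-0.163 without shNC 1). CDKN1A, the cell cycle inhibitor p21, had 101.15, 87.08 and 87.01 FPKM in shNC and 18.76, 79.36 and 16.95 FPKM in shPQBP1, a log2 fold change of -1.64. Its shPQBP1 samples split, with shPQBP1 2 near the controls. Only without that sample, which differs from the other shPQBP1 samples, was the log2 fold change -2.35 with a limma adjusted p of 0.009285. DDB2 had 13.4 ± 2.19 and 9.83 ± 0.624 FPKM, and BBC3 3.60 ± 0.121 and 2.87 ± 0.365 FPKM. The log2 fold changes of DDB2 and BBC3 were -0.43 and -0.33, and with the GC and length correction -0.30 and -0.10. That of CDKN1A was -1.46 with the correction.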
